A study of Mus musculus with 8 samples.

Results

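Gata3, Elf5, Tfap2a, Tfap2c, Krt7, Krt8, Krt18 and Tpbpa were followed through the early differentiation of mouse embryonic stem (ES) cells. They were taken as the 8 of 34736 gene names on the array that carry these symbols, and 10 of its 55583 probes measured them. The cells were wild type (WT) or heterozygous for R141C, a missense change in Nkx2-5, the homeobox transcription factor of the early heart. WT and R141C cells were each taken undifferentiated at day 0 and after 6 days of differentiation, with 2 biological replicates in each of the 4 groups and 1 single-colour Agilent array per culture. The day 6 cultures of both genotypes were differentiated as embryoid bodies, which are floating aggregates formed without LIF, first in hanging drops, then in suspension, and plated on gelatin for the last day. The labels name no second cell line or clone for either genotype, so a difference between genotypes could not be told apart from a difference between lines.

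The trophoblast is the outer layer of the blastocyst and forms most of the placenta, while ES cells derive from the inner cell mass. Gata3, Tfap2c, Elf5 and Tfap2a encode transcription factors that act in trophoblast cells. Gata3 and Tfap2c take part in setting up that lineage, Elf5 maintains its stem cells, and all of these factors also work elsewhere, Tfap2a in neural crest and surface ectoderm and Tfap2c in germ cells and in ES cells. Tpbpa is a marker of the spongiotrophoblast, a differentiated layer of the placenta. Krt8 and Krt7 encode type II keratins, and Krt18 encodes a type I keratin that pairs with them into the filaments of simple, single-layered epithelia, trophectoderm and yolk sac endoderm included.

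Signals are given as log2 of the processed signal minus the 75th percentile of the same array, so that 0 is a fairly bright gene and levels of different probes cannot be set against each other. A gene was tested where both arrays of some group read its probe well above background, and 7 of the 8 genes met this. Changes were called with limma at a Benjamini-Hochberg adjusted p under 0.05 over all 25892 genes tested. Of these, 11% rose and 12.9% fell over 6 days in WT, and 7.6% rose and 8.04% fell in R141C cultures. Replicate arrays correlated across genes with r of 0.982 to 0.994. WT replicate 1 at day 0 was closer to both R141C arrays of that day (0.9913 and 0.9872) than to WT replicate 2 (0.9825). Likewise R141C replicate 2 at day 6 lay nearer the WT arrays (0.988 and 0.9887) than R141C replicate 1 (0.9819). WT replicate 2 at day 0 held the lowest signal of all 8 arrays for 6 of the 7 genes tested, against 16.6% of all genes tested, and the main values that rest on it are also given without it. All arrays were on 1 slide, with day 0 in one column and day 6 in the other, so slide column and day could not be told apart. Both genotypes of a day shared a column, and the effect of position within a column was not tested. Among 12 markers of undifferentiated ES cells, all were well above background on every day 0 array, and 11 fell over 6 days in WT and 10 in R141C cultures (8 to 11 and 6 to 11 with any 1 array left out).

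The promoters of Krt8, Krt18, Krt7 and Gata3 are shown as examples that hold matches to motifs of GATA, AP-2 and ETS factors, the families of the factors described here. The Tpbpa promoter also held a match and is not shown. Each sequence is the 250 bases before the RefSeq start site on GRCm38.p6, written 5′ to 3′ along the gene, and capitals mark matches on either strand to the letters searched. These were GCCNNNGGC for AP-2 factors such as Tfap2a, AGATAA for zinc-finger factors of the Gata3 family and CAGGAAG for ETS factors such as Elf5. No match overlapped another. RefSeq entries were matched by symbol for 7 of the 8 genes, with 9 start sites. The AP-2 letters are found in 13.7% of 32851 mouse promoters of this length, the GATA letters in 9.99% and the ETS letters in 10.8%. Krt8 is at chr15:102004343-102004592 on the minus strand, Krt18 at chr15:102027966-102028215 on the plus strand, Krt7 at chr15:101412153-101412402 on the plus strand and Gata3 at chr2:9878601-9878850 on the minus strand.
Krt8: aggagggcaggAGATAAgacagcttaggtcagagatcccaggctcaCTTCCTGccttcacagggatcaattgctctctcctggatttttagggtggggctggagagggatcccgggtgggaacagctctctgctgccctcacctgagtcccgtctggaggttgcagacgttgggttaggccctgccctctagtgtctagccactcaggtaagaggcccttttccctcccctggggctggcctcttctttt
Krt18: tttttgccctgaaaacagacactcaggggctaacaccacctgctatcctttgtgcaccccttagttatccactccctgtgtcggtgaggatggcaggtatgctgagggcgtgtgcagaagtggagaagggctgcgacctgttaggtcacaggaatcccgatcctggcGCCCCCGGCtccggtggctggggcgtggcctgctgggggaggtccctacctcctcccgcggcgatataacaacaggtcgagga
Krt7: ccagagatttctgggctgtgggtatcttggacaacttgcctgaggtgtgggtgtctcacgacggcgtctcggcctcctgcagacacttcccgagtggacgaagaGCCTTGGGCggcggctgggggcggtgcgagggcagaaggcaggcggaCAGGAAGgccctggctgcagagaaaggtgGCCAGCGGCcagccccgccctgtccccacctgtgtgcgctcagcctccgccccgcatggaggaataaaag
Gata3: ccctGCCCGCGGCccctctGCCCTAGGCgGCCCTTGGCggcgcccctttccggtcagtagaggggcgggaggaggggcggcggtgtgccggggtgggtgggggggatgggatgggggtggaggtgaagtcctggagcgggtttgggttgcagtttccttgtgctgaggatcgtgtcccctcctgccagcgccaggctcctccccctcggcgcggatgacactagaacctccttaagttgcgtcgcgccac
The Krt8 promoter held 1 GATA match and 1 ETS match, the latter as its reverse complement. The Krt18 promoter held 1 AP-2 match, that of Krt7 held 2 AP-2 matches and 1 ETS match, and that of Gata3 held 3 AP-2 matches between -246 and -213 from the start site. The 4 windows of Elf5 and Tfap2a held 0 matches and that of Tpbpa 1 AP-2 match. A match describes letters in these windows and does not show that a factor binds there.

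Tfap2c, which encodes the AP-2γ factor, gave the only called change among the 7 genes tested: it fell in WT cultures by 2.35 on the log2 scale over 6 days, a signal 5.09-fold lower. Its log2 signal (probe A_51_P418820, chr2:172383860-172383919 of mm9, plus strand) was 3.49 and 3.34 in the WT cultures at day 0 and 1.12 and 1.01 at day 6. In R141C cultures it was 3.57 and 2.97 at day 0 and 3.15 and 2.42 at day 6. The WT cultures at day 6 stood below the other 6, and the R141C cultures overlapped between the days. The fall in WT had a standard error of 0.31, a 95% interval of -3.1 to -1.6 and an adjusted p of 0.00369 by limma, and lay between -2.42 and -2.27 when any 1 array was left out. In R141C cultures the difference over 6 days was -0.49 (95% interval -1.24 to 0.26, limma adjusted p = 0.346).

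At day 6 the Tfap2c signal was 3.29-fold higher in R141C than in WT cultures, a log2 difference of 1.72 with a 95% interval of 0.97 to 2.47. The 4 cultures did not overlap, and the difference had an unadjusted p of 0.00109 and an adjusted p of 0.22 by limma, so it was not called. Left out in turn, single arrays moved it between 1.35 and 2.08. At day 0 the difference was -0.14 (interval -0.89 to 0.61). The change over time differed between genotypes by 1.86 (interval 0.8 to 2.92), with an unadjusted p of 0.00452 and an adjusted p of 0.688 by limma. The summed linear signal of the 12 ES cell markers, in units of the 75th percentile, was also higher in R141C at day 6. It was 120 and 98.9 in R141C replicates 1 and 2, against 82.4 and 70.8 in WT. The brightest marker, Dppa5a, weighs most in this sum, with log2 signals of 6.15 and 5.82 in R141C and 5.34 and 5.29 in WT. Of the 12 markers, 10 were higher and 2 lower in R141C, with a median difference of 0.27 against 0.07 over all genes, and none was called. Their part in the Tfap2c difference was not tested. In bulk cultures such as these, fewer cells of a type and less RNA per cell cannot be told apart.

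**Figure D1:**
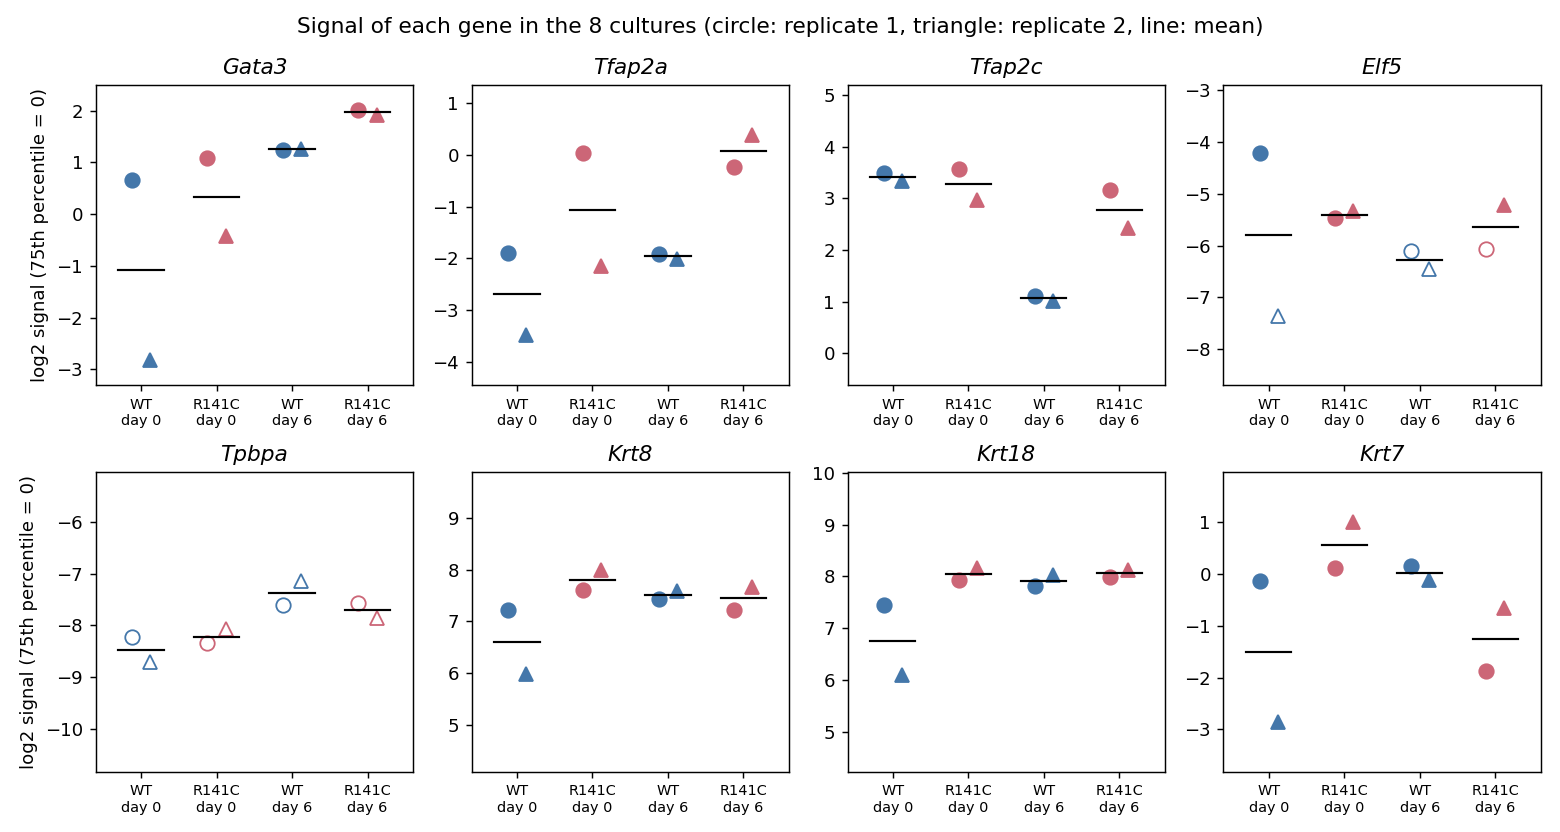
Log2 signal of each gene (75th percentile of the array at 0) in the 8 cultures, 1 panel per gene, with circles for replicate 1, triangles for replicate 2 and a line at the group mean. Filled symbols were well above background and open symbols were not; all panels span the same height, with different offsets. Tfap2c stands at 1.12 and 1.01 in WT cultures at day 6 and at 2.42 or more in the other 6, and the triangle of WT at day 0 is the lowest of 8 for Gata3, Tfap2a, Elf5, Krt8, Krt18 and Krt7.

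Gata3, a zinc-finger factor of the trophectoderm that also acts in kidney ducts, inner ear and T cells, was brightest at day 6 in R141C cultures. Its log2 signal (probe A_66_P111011, chr2:9779551-9779610 of mm9, minus strand) was 0.66 and -2.83 in WT at day 0, 1.08 and -0.43 in R141C at day 0, 1.23 and 1.26 in WT at day 6, and 2.02 and 1.91 in R141C at day 6. Every day 6 culture was above every day 0 culture, and the R141C cultures at day 6 were above the WT cultures. The day 0 groups overlapped, and WT replicate 2 minus replicate 1 there was -3.49, a gap exceeded by 0.386% of all genes tested.

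No Gata3 difference was called. The signal at day 6 exceeded that at day 0 by 2.33 in WT (95% interval -0.18 to 4.84, limma adjusted p = 0.157) and by 1.64 in R141C cultures (interval -0.87 to 4.15, adjusted p = 0.344). The WT value rests on the day 0 replicates: it was 4.07 (adjusted p = 0.0109) without replicate 1 and 0.59 without replicate 2. R141C exceeded WT by 1.41 at day 0, a difference that was -0.33 without WT replicate 2, and by 0.72 at day 6 (interval -1.79 to 3.23).

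Tfap2a, the AP-2α factor of surface ectoderm and neural crest, was higher in both R141C cultures at day 6 than in any culture but 1. Its brighter probe (A_55_P1964812, chr13:40811044-40811103 of mm9, minus strand), which the array design assigns to both annotated transcript variants, read -1.89 and -3.48 in WT at day 0 and 0.04 and -2.15 in R141C at day 0. At day 6 it read -1.91 and -2.01 in WT and -0.23 and 0.38 in R141C. The genotypes did not overlap at day 6, while R141C replicate 1 at day 0 lay between the R141C cultures of day 6. The day 6 difference was 2.03 on the log2 scale, 4.09-fold higher in R141C (95% interval 0.18 to 3.89), with an unadjusted p of 0.0361 and an adjusted p of 0.544 by limma, and was not called. At day 0 the difference was 1.63 (interval -0.23 to 3.48). The differences over time were 0.73 in WT (adjusted p = 0.544), which was -0.07 without WT replicate 2 at day 0, and 1.13 in R141C (adjusted p = 0.377).

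A second Tfap2a probe (A_55_P2199463, chr13:40829040-40829099 of mm9, minus strand) lists 1 of the transcript variants alone, and its 60 bases from the array design are shown because it is the variant-specific reading of the gene.
Tfap2a variant 1 probe: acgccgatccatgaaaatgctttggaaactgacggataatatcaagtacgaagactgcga
It was well above background in R141C replicate 1 at day 0 (-4.42) and in both R141C cultures at day 6 (-4.69 and -5.43), and in none of the 4 WT cultures. Against WT the bound was at least 1.1-fold higher at day 6, from a mean of -5.06 in R141C. The WT mean there, -6.7, came from readings not well above background. No bound is given at day 0, where R141C replicate 2 was not above background and read -8.06, between the WT readings of -7.46 and -8.71. Fitted on its own, this probe differed by 1.64 at day 6 with a limma adjusted p of 0.71. The probes of Tfap2a correlated with r of 0.92 over the 8 arrays.

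Elf5, an ETS-family factor that keeps trophoblast stem cells in their state, was near background. Its probe (A_51_P455866, chr2:103290958-103291017 of mm9, plus strand) was well above background on 4 of 8 arrays, at -4.22 in WT replicate 1 and -5.46 and -5.33 in R141C cultures at day 0, and at -5.22 in R141C replicate 2 at day 6. The other 4 readings ran from -7.37 to -6.06. It passed the filter through the R141C cultures at day 0, none of its differences was called, and no fold is given since WT at day 6 was not above background.

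Tpbpa (probe A_66_P110584, chr13:61040246-61040305 of mm9, minus strand) was not well above background on any of the 8 arrays, with log2 readings of -8.71 to -7.15, and was not tested. Among other genes of differentiated placental cells, Prl8a9, Prl4a1 and Ctsq were also too dim to test, while Prl3d1, Prl3b1 and Synb were well above background on all 8 arrays and Syna on the 4 day 0 arrays. Over the 8 arrays, log2 readings ran from -1.27 to -1 for Prl3b1, -3.39 to -2.65 for Prl3d1 and -3.5 to -2.71 for Synb. None of these 3 nor Syna was called in any of the comparisons between groups. Gcm1, the factor of the labyrinth layer, was above background with a log2 difference over time of -0.63 in WT (adjusted p = 0.401) and -0.04 in R141C (adjusted p = 0.966). The name of trophoblast factors describes what these genes are known for, and Tpbpa, the marker of spongiotrophoblast, was not well above background in any culture.

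Krt8 and Krt18 were among the bright genes of the arrays and had their lowest signal of 8 in WT replicate 2 at day 0. Krt18 (probe A_51_P324814, chr15:101862341-101862400 of mm9, plus strand) read 7.44 and 6.09 in WT at day 0, 7.93 and 8.16 in R141C at day 0, 7.82 and 8.03 in WT at day 6, and 7.99 and 8.13 in R141C at day 6. Krt8 (probe A_66_P128079, chr15:101827138-101827197, minus strand) read 7.22 and 5.99 in WT at day 0, 7.6 and 8 in R141C at day 0, 7.43 and 7.59 in WT at day 6, and 7.23 and 7.67 in R141C at day 6. For both genes WT at day 0 lay below R141C at day 0 and below WT at day 6, with no overlap, and replicate 2 was the lower of its cultures. Replicate 2 minus replicate 1 in WT at day 0 was -1.34 for Krt18 and -1.24 for Krt8, and the median size of this gap over all genes was 0.3.

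None of the differences of Krt8 or Krt18 was called. R141C exceeded WT at day 0 by 1.28 for Krt18 (2.43-fold, 95% interval 0.29 to 2.27, unadjusted p = 0.0187) and by 1.2 for Krt8 (2.29-fold, interval 0.21 to 2.19, unadjusted p = 0.0247), each with a limma adjusted p of 1. Without WT replicate 2 these were 0.61 and 0.58. Over 6 days in WT the differences were 1.16 for Krt18 (interval 0.17 to 2.15, adjusted p = 0.0901) and 0.9 for Krt8 (interval -0.09 to 1.89, adjusted p = 0.163). They were 0.49 and 0.28 without replicate 2, and 1.83 (adjusted p = 0.00974) and 1.52 (adjusted p = 0.0285) without replicate 1. In R141C cultures the differences over time were 0.01 (interval -0.98 to 1.01) and -0.35 (interval -1.34 to 0.64), and the genotypes differed at day 6 by 0.14 and -0.06.

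The second Krt8 probe (A_55_P2128501, chr15:101828827-101828886 of mm9, minus strand) gave the same order of the group means, though not of every culture. It read 5.55 and 3.99 in WT at day 0, 6.01 and 6.76 in R141C at day 0, 5.88 and 6.24 in WT at day 6 and 5.29 and 6.31 in R141C at day 6. The Krt8 probes correlated with r of 0.984 over the 8 arrays. Krt8 and Krt18 are neighbours on chromosome 15, with 35.1 kb between their measured probes, and their signals correlated with r of 0.96 over the 8 arrays and 0.72 without WT replicate 2 at day 0. These correlations describe arrays that fall into 4 groups and share 1 slide. Gata3 correlated with Krt18 at 0.84 over all arrays and at 0.07 without that array, and Gata3 with Krt7 at 0.39 and -0.85.

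Krt7, a keratin of ducts, mesothelium and trophoblast, ran in opposite directions in the genotypes, without a called change. Its log2 signal (probe A_52_P410685, chr15:101253718-101253777 of mm9, plus strand) was -0.14 and -2.85 in WT at day 0, 0.11 and 1.01 in R141C at day 0, 0.16 and -0.12 in WT at day 6, and -1.87 and -0.65 in R141C at day 6. The R141C cultures were above WT at day 0 and below WT at day 6, with no overlap on either day, and the nearest WT cultures of the days, at -0.14 and -0.12, were nearly equal. The probe's 60 bases are shown because keratin genes share stretches of sequence and this gene rests on 1 probe.
Krt7 probe: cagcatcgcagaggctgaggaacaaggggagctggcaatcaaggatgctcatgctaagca
The difference over time was 1.52 in WT (95% interval -0.56 to 3.59, limma adjusted p = 0.252) and -1.82 in R141C cultures (interval -3.89 to 0.26, adjusted p = 0.214). The genotypes differed by 2.06 at day 0 (interval -0.01 to 4.14) and by -1.27 at day 6 (interval -3.35 to 0.8, adjusted p = 0.726). The test of the difference between the changes over time gave -3.33 (interval -6.27 to -0.4), with an unadjusted p of 0.0314 and an adjusted p of 0.854 by limma. Without WT replicate 2 at day 0 the WT difference over time was 0.16, the day 0 difference between genotypes 0.7 and the difference between the changes -1.98. Without WT replicate 1 the WT difference over time was 2.87 (limma adjusted p = 0.0296) and the difference between the changes -4.69.

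Markers of mesothelium, a lining that expresses Krt7, had summed linear signals of 6.62 and 2.96 in WT replicates 1 and 2 at day 0, 5.9 to 8.11 in R141C at day 0, 4.21 to 4.39 in WT at day 6 and 1.65 to 3.04 in R141C at day 6, over 7 genes tested. In the R141C cultures these sums, in which the brightest genes weigh most, were lower at day 6 without overlap, as the Krt7 signals were. The brightest at day 0 were Wt1 and Msln, with log2 signals of 2.46 and 1.25 and of 0.36 and 0.85 in R141C. In R141C replicate 1 at day 6, 3 of the 7 were well above background. Gene by gene in R141C, whether called or not, 5 of the 7 were lower at day 6 and 2 higher, with a median difference of -0.46. That median was 0.07, with 4 of the 7 higher, without R141C replicate 1 at day 6. The part of these markers in the Krt7 values was not tested. Of the 7 genes, 1 was called as rising and 1 as falling in WT over 6 days, where 11% and 12.9% of all genes were. In R141C cultures 2 were called as falling, Msln and Wt1, against 8.04% of all genes. With any 1 array left out, 0 to 2 rose and 1 fell in WT, and 1 to 2 fell in R141C cultures.

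**Figure D2:**
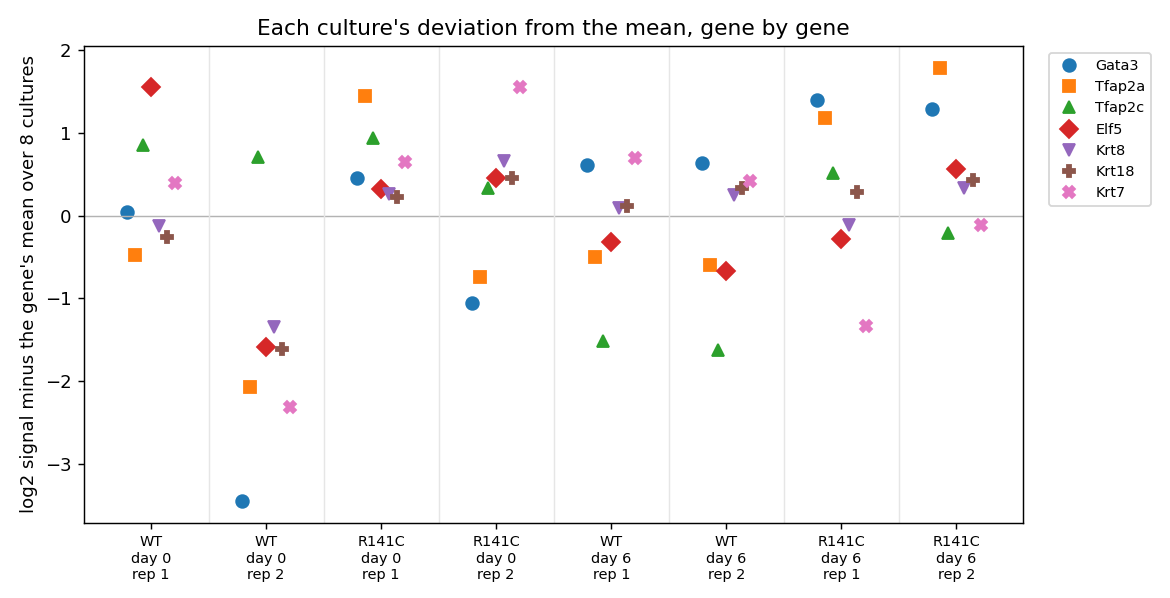
Log2 signal of the 7 genes tested minus the mean of that gene over the 8 arrays, by gene and array. In WT replicate 2 at day 0 all genes but Tfap2c are at their lowest value of 8, and Tfap2c is lowest in the WT cultures at day 6.

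Read across the 7 genes tested, day 6 against day 0 in WT gave 1 called change, where 24% of all genes tested were called, 2 genes at an unadjusted p under 0.05, where 37.8% of all genes were, and 5 genes whose groups did not overlap, where 71.3% of all genes did not. The same comparison in R141C cultures gave 0 called members, against 15.6% of all genes, with 0 of the 7 at an unadjusted p under 0.05 (30.5% of all genes) and 2 without overlap (56%). Between genotypes at day 0 no gene of the array was called (0%), with 1165 genes (4.5%) at an unadjusted p under 0.05 in limma. At that threshold stood 2 of the 7, Krt8 and Krt18, and 3 of the 7 did not overlap, against 28.8% of all genes. At day 6, 17 genes (0.0657%) were called between genotypes and none was among the 7. At an unadjusted p under 0.05 stood Tfap2a and Tfap2c, against 8.53% of all genes, and 5 of the 7 did not overlap, against 44.3%. Elf5 is 1 of these 5, with 1 of its 4 readings well above background. The difference of the change over time was called for 0 genes (0%), with 5.64% of all genes and 2 of the 7, Krt7 and Tfap2c, at an unadjusted p under 0.05.

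**Figure D3:**
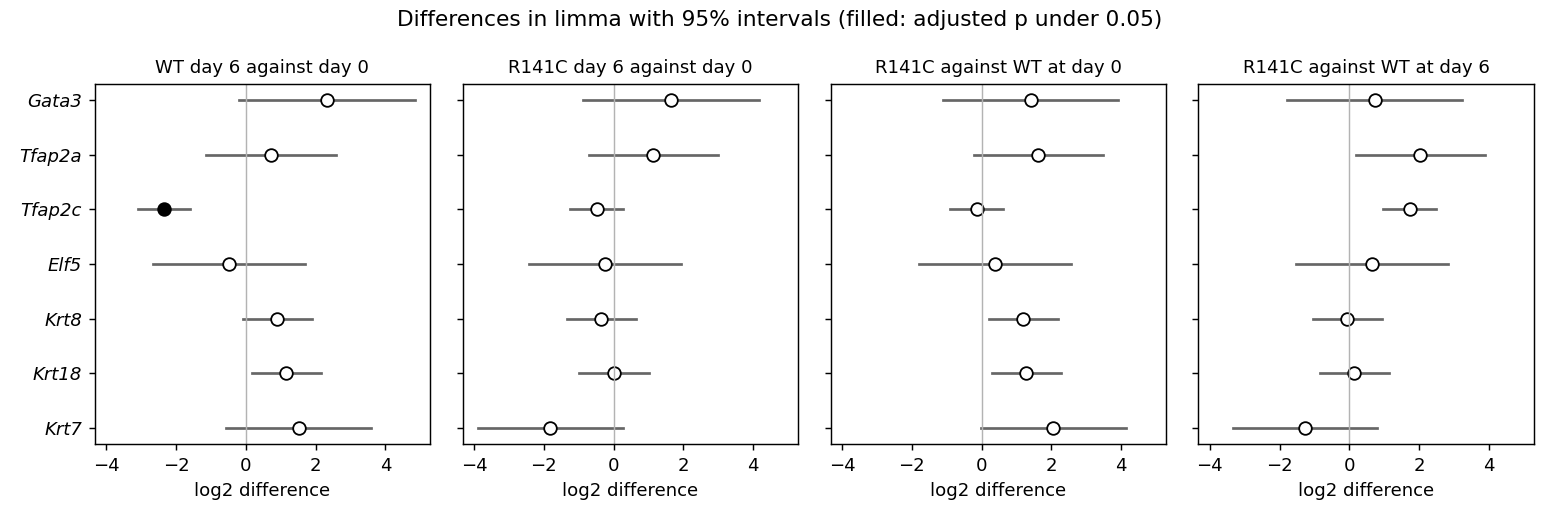
Log2 differences of the 7 genes tested in the 4 comparisons between groups, as points with 95% intervals from limma, filled where the adjusted p was under 0.05; the line at 0 is no difference. The interval of Tfap2c over 6 days in WT runs from -3.1 to -1.6 and its point is the only filled one.

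Other genes of trophoblast cells changed over 6 days in both directions, in numbers that moved with single arrays. Of 36 tested genes of a trophoblast list of 41, 8 rose and 8 fell in WT, and 8 rose and 6 fell in R141C cultures, where 11% and 12.9% of all genes rose and fell in WT and 7.6% and 8.04% in R141C. Without WT replicate 2 at day 0, 4 rose and 10 fell in WT. With any 1 array left out, 3 to 8 rose and 6 to 10 fell in WT, and 3 to 6 rose and 5 to 8 fell in R141C cultures. In WT, Hand1, a factor of giant cells and of heart mesoderm, rose by 3.72 (limma adjusted p = 0.00193). Esrrb, which maintains both trophoblast and ES cells, fell by 4.9 (adjusted p = 0.00097), Bmp8b, a secreted ligand, fell by 3.64 (adjusted p = 0.00829), and Tfap2e, a relative of Tfap2a, fell by 3.23 (adjusted p = 0.00319). In R141C cultures Hand1 rose by 4.13 and Plac1, a placental gene, by 3.63, while Bmp8b fell by 4.26 and Wnt7b, a Wnt ligand, by 3.83. Between genotypes none of the 36 was called on either day. At day 6, 28 of them were higher and 8 lower in R141C, with a median of 0.41 against 0.07 over all genes. Their summed linear signal was 371 to 417 in R141C and 248 to 263 in WT cultures. Slc2a3, the brightest of the 36, weighs most in this sum, with log2 signals of 7.2 and 7.63 in R141C and 6.86 and 6.84 in WT.

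Of 36 tested genes of epithelia and surface ectoderm, 3 rose and 9 fell in WT and 1 rose and 9 fell in R141C cultures. Over all genes, 11% rose and 12.9% fell in WT, and 7.6% rose and 8.04% fell in R141C. Krt17, a keratin of stratified epithelia, fell by 2.73 in WT (limma adjusted p = 0.00981) and by 3.98 in R141C (adjusted p = 0.0042). Wnt6, a ligand of surface ectoderm, fell by 2.78 in WT (adjusted p = 0.0451) and by 3.01 in R141C (adjusted p = 0.0466), and Grhl1, a factor of epidermal cells, by 2.49 and 2.52 (adjusted p = 0.0178 and 0.0243). Krt15, a keratin of basal cells, rose by 2.98 in WT (adjusted p = 0.0289), and Perp, a desmosome protein, fell by 2.86 in R141C (adjusted p = 0.0125). Without WT replicate 2 at day 0 the list had 0 genes higher and 6 lower in WT. With any 1 array left out, 0 to 3 rose and 1 to 8 fell in WT, and 1 to 2 rose and 3 to 10 fell in R141C cultures.

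The epithelial list also differed between the day 0 WT cultures. Its median log2 signal was 1.46 in replicate 1 and -0.01 in replicate 2, with 30 of 36 genes lower in replicate 2, and its summed linear signal was 229 and 146. In R141C cultures at day 0 the median was 0.67 and 1.23. The genotype difference at day 0 was positive for 27 of the 36 genes with a median of 0.32, which was 0.04 without WT replicate 2, and none was called. At day 6 the medians were 0.05 to 0.33 over the 4 cultures. The summed signal of the 12 ES cell markers ran the other way in the day 0 WT cultures, at 556 in replicate 1 and 738 in replicate 2. The median of their log2 levels did not, at 5.16 and 5.03. Gene by gene, replicate 2 minus replicate 1 had a median of 0.57 over the 12 markers, with 4 of them lower in replicate 2. That median was -0.76 over the epithelial list and -0.01 over all genes. The part of these markers in the keratin values was not tested.

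**Figure D4:**
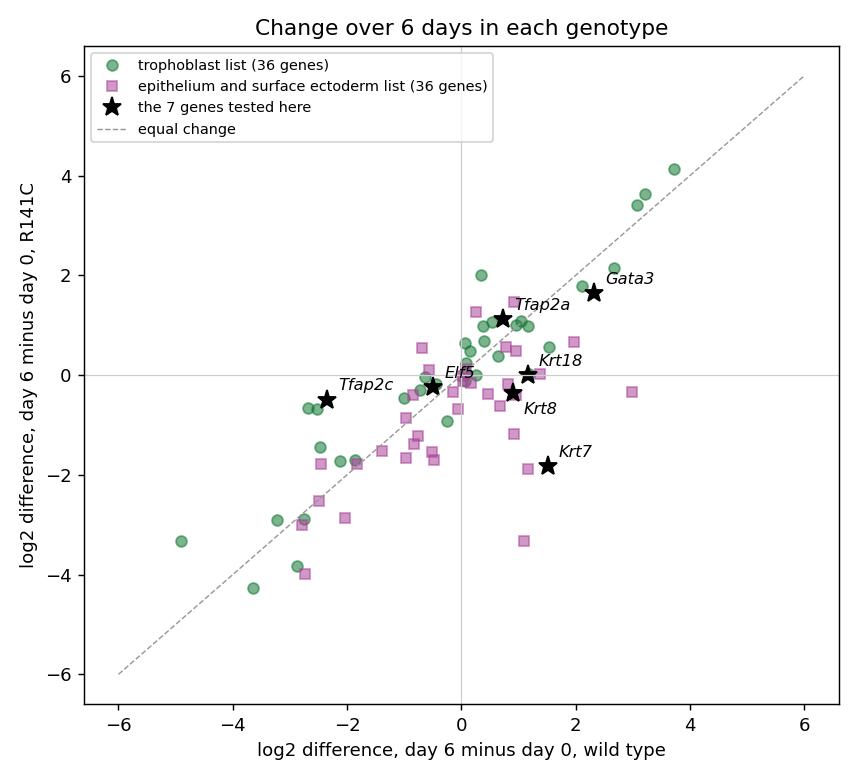
Log2 difference between day 6 and day 0 in WT (x axis) and in R141C cultures (y axis) for the 7 genes tested (stars), 36 genes of the trophoblast list (circles) and 36 of the epithelial list (squares), with a dashed line of equal change. Tfap2c stands at -2.35 and -0.49, above the line, and Krt7 at 1.52 and -1.82, below it.

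Markers of other lineages in which these genes act also changed over 6 days, where 11% of all genes rose and 12.9% fell in WT. In R141C cultures 7.6% of all genes rose and 8.04% fell. Of 12 endoderm genes, a lineage rich in Krt8 and Krt18, 10 rose and 1 fell in WT and 11 rose in R141C cultures; 8 to 10 and 9 to 11 rose with any 1 array left out. Of 10 neural crest genes, the lineage of Tfap2a, 7 rose and 1 fell in WT and 6 rose and 1 fell in R141C. Foxd3 was the gene that fell, with differences of -3.44 in WT and -4.47 in R141C, and Sox10 was not called, at -0.01 and -0.2. With any 1 array left out, 4 to 8 rose in WT and 2 to 6 in R141C. The summed neural crest signal at day 6 was 24.3 to 27.3 in WT and 26.9 to 40.6 in R141C cultures. The median log2 signal ran the other way, at 0.36 to 0.6 in WT and -0.2 to -0.1 in R141C, with 6 of 10 genes lower in R141C, and the part of these genes in the Tfap2a difference was not tested. Of 8 cardiac muscle genes, 6 rose in WT and 1 in R141C cultures. These counts rested on single arrays: they were 1 and 0 without WT replicate 2 at day 0 and 7 and 4 without R141C replicate 1 at day 6.

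Among 17691 named genes, the profile over the 8 arrays most like that of Tfap2c was that of Nol9 (r of 0.995), followed by Rps4l (0.991) and Gm10461 (0.983). Krt18 was most like Ktn1 (0.984), Raly (0.979) and Traf4 (0.966), and Krt8 most like Tax1bp3 (0.977), Krt13 (0.972) and Psap (0.971). Krt7 was most like Errfi1 (0.989) and Icmt (0.986). Gata3 was most like BC048679 (0.984), Casc3 (0.976) and Ankrd24 (0.965), Tfap2a most like Olfr555 (0.966), Smyd1 (0.96) and Antxrl (0.933), and Elf5 most like Dmkn (0.95), Fcf1 (0.933) and Npm2 (0.932). The log2 range over the arrays of the like genes named here ran from 0.35 for Smyd1 to 2.8 for Krt13. Icmt (0.38), Fcf1 (0.6) and Gm10461 (0.61) also varied little. Among the 7 genes tested it ran from 2.02 for Krt8 to 4.85 for Gata3. These are the highest of many correlations over 8 arrays that share groups and a slide, and they describe these arrays only.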

How the data were processed

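RNA of 8 mouse ES cell cultures in 4 groups of 2 was measured on 1-colour Agilent arrays. The processed signal is an intensity, deposited with background subtracted, and per the file headers it was made with Feature Extraction 11.5.1.1, while the submitters' processing notes give 10.5.1.1. Mean spot signal and median local background are further deposited intensity values. The deposited spot flags (other) mark outliers, saturation and signal well above background. The deposited series matrix holds log2 values whose columns have medians of 8.99 to 9.04 and correlate at 0.9995 to 0.9999 with the matching array's log2 signal. Its filter is not given in the sources used here, nor is its normalization.

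Control spots, 131 to 251 outlier spots per array and 98 probes without a value on some array were removed, and spots of a probe were averaged. No spot was saturated. Between 30989 and 39185 probes per array (55.8% to 70.5%) were well above background, and processed signals had a 75th percentile of 936.3 to 1848.3. Log2 of the signal was shifted so that this percentile was 0. Probe names were updated through RefSeq gene tables, which renamed 2030 probes. Each gene was read from its probe with the highest mean. With 2 arrays per group, their number limits the precision.

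limma 3.58.1 (R 4.3.3, data.table version 1.17.8) fitted 4 group means to all 8 arrays, with 4 residual and 2.7 prior degrees of freedom. Tests were two-sided, adjusted by Benjamini-Hochberg over 25892 genes in each of 5 comparisons. Figures used Python 3.11.15, pandas 2.3.3 and matplotlib 3.10.9. A fold against a group not above background is a lower bound against the lowest signal among probes above background. The fit was tested on simulated data. The genes, the 7 marker lists and the rules were chosen with earlier results of these data known. All 8 genes were named, as were up to 4 called genes of the trophoblast and epithelial lists with the largest change over time, and for each gene the 3 most like it (the result of 1 gene that the rule named is not reported here); the other lists are given as counts. Gcm1, Prl3d1, Prl3b1, Synb, Syna, Dppa5a, Slc2a3, Wt1, Msln, Foxd3, Sox10 and the genes not tested were named after their values were seen. Replicate numbers were not shown to pair the cultures: deviations of same-numbered cultures correlated from -0.136 between the genotypes at day 0 to 0.339 between the days in R141C.

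Alternatives were normexp with an offset of 50, quantile normalization, a shift to the median, the series matrix, other filters on dim probes, trend and robust settings, the arrays compared alone, the mean of a gene's probes, each array left out and a replicate block. Fitting each probe on its own, crossed pairs at day 0 and leaving out WT replicate 2 at day 0 with R141C replicate 1 at day 6 were added after seeing the data.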

Additional observations from a re-analysis of the deposited data

How the results depend on the processing

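The fall of Tfap2c in WT cultures kept its direction and its call under every alternative run, at -2.42 to -2.23 with adjusted p of 0.00128 to 0.0329. Of 695 alternative values of single genes, 659 kept direction and side of the threshold, 30 turned in sign and 6 newly passed the threshold, and the cause was not tested. The number of the 7 genes called in WT over time was 1 to 5 when 1 array was left out, 5 without WT replicate 1 at day 0 and 2 without replicate 2, where Elf5 was called at -2.06 (adjusted p = 0.0254); with R141C replicate 1 at day 6 left out too it was 2. In the other comparisons it was 0 under every alternative run. With 1 array left out, WT over time ranged from -2.06 to 1.09 for Elf5 and -0.07 to 1.53 for Tfap2a, and R141C over time from -0.66 to 0.18 for Elf5 and -0.1 to 0.13 for Krt18. The day 0 difference ranged from -1.18 to 1.97 for Elf5, -0.33 to 3.16 for Gata3 and -0.44 to 0.16 for Tfap2c, and the day 6 difference from -0.28 to 0.16 for Krt8. With both of the arrays named above left out, the difference between genotypes over time was 2.24 for Elf5 and 1.5 for Tfap2a, and it reached -2.43 for Gata3 without WT replicate 1 at day 0. Elf5 (1.09) in WT over time, and Elf5 (-1.33) and Tfap2a (-0.4) in the difference between genotypes over time, turned without WT replicate 1 at day 0. Without replicate 2, with or without the day 6 array, Tfap2a in WT over time (-0.07) and Elf5 (-1.18) and Gata3 (-0.33) at day 0 turned, as did Gata3 in the difference over time (1.05, or 1 with both arrays out). In R141C over time Krt18 was -0.22 with quantile normalization, -0.04 with normexp, -0.25 in the series matrix, and -0.1 and -0.06 without R141C replicate 1 at day 0 or replicate 2 at day 6. Elf5 there was 0.29 with normexp, 0.02 in the series matrix and 0.18 without R141C replicate 1 at day 6. At day 0 Elf5 was -0.01 with normexp and Tfap2c 0.16 without R141C replicate 2. At day 6 Krt18 was -0.17 with quantile normalization and -0.18 in the series matrix, and Krt8 was 0.02 without WT replicate 2 and 0.16 without R141C replicate 1. In the difference over time Gata3 was 0.06 and Tfap2a -0.69 without R141C replicates 1 and 2 at day 0, and Elf5 -0.17 without R141C replicate 2 at day 6.

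Genes of the whole array called over time numbered 2151 to 6409 in WT and 1619 to 4262 in R141C with 1 array left out, and 2458 in R141C with only the arrays compared. Between genotypes at day 6 they numbered 0 to 117 with 1 array left out, 5 with normexp, 1 in the series matrix and 0 with no filter, a filter on all 8 arrays, trend and robust settings or only the arrays compared. At day 0, 1 gene was called with normexp and 1 with the filter on all 8 arrays, and in the difference over time 7 with quantile normalization and 1 in the series matrix. With the replicate number as a block, Tfap2c in WT had a value of -2.35 (adjusted p = 0.00319), 1 of the 7 genes was called in WT over time and 0 in the other comparisons, and 0 genes of the array were called at day 6 between genotypes. With crossed pairs at day 0, a block called 0 genes. Elf5 did not pass the filter on all 8 arrays and has no value there. Signal near background limits Elf5 and Tpbpa: the Elf5 differences above are set against readings of which 4 of 8 were not well above background.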
